A study of Homo sapiens with 24 samples.

Results

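JIMT1 cells, a breast cancer line, were exposed for 4 hr to BYL719, an inhibitor of the α isoform of PI3K, together with GSK2334470, an inhibitor of PDK1, each at 1 μM, or to the solvent DMSO. The comparison uses 3 arrays of the combination and 3 arrays of DMSO, 6 of the 24 Illumina bead arrays of the series, chosen by cell line and treatment alone. The other arrays hold JIMT1 with BYL719 alone or GSK2334470 alone at 1 μM, also for 4 hr, and the breast cancer line HCC1954 with the same 4 treatments, 3 arrays per group. The study set out to learn how transcription changes when PI3Kα and PDK1 are blocked together in lines that respond poorly to BYL719. The arrays of a group are described as biological replicates, so p-values rest on the spread between replicates. The main test pools that spread over the groups of all 24 arrays, HCC1954 and the single agents included. It is thus not the spread of the 6 compared arrays alone. JIMT1 is 1 line, and the arrays give the abundance of RNA at 1 early time and not the growth or death of the cells.

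PI3Kα makes the membrane lipid PIP3, and PDK1 activates AKT, SGK and S6K kinases by phosphorylating their activation loop. AKT and SGK keep FOXO transcription factors phosphorylated and out of the nucleus, and they relieve the brake that TSC2 puts on mTORC1, the kinase complex that drives ribosome production and holds back autophagy. When this signaling falls, FOXO factors enter the nucleus and bind a forkhead motif at genes of cell-cycle arrest, receptor signaling, protein breakdown and cell death.

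Values are log2 intensities after background correction and quantile normalization, so that 1 unit is a 2-fold difference in signal, and a gene is represented by its brightest probe. A gene is said to have risen or fallen when its adjusted p from limma was under 0.05 over the 12109 genes tested. The 6 arrays had median raw intensities of 50 to 66.7 with the combination and 53.9 to 61.2 with DMSO, and 41.9% to 43.4% against 43.2% to 43.8% of their probes were detected. Normalized values correlated at r from 0.991 to 0.994 between combination arrays, from 0.993 to 0.994 between DMSO arrays and from 0.981 to 0.985 between the treatments. The epithelial genes EPCAM, CDH1, KRT8, KRT18, KRT19 and ERBB2 were detected on all 6 arrays. Of 29 markers of other cell types on the array, 10 to 12 were detected on each combination array and 10 to 12 on each DMSO array. The 11 that passed the detection filter had a mean level of 6.31 to 6.48 with the combination and 6.41 to 6.44 with DMSO, and CD14, CD68, PECAM1 and COL1A1 were among those detected on all 6 arrays. The immune and stromal genes PTPRC, CD3E, VWF and COL3A1 were detected on none.

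The starts of some of the genes that rose most are shown first, those in which the forkhead motif was found. Promoter sequence from RefSeq (GRCh38.p14), 250 bases before to 50 bases after the first listed gene start, was at hand for 17 of the 20 largest rises and 15 of the 20 largest falls. The letters GTAAACA, the core of the forkhead box O consensus, were searched on both strands, so that TGTTTAC counts as a match. They stood in 5 of the 17 rises (29.4%) and in 0 of the 15 falls. The share was 2.35% of the promoters of 9715 genes tested and 3.41% of all 27305 promoters. It was 5.13% among genes that rose and 1.08% among genes that fell, and 15.4% (18 of 117) among genes that rose at least 2-fold. In the list of FOXO-activated genes described below it was 12.1% (4 of 33). These are counts of letters in a short window and not sites where a factor was measured. The 5 promoters lie at chr7:135147822-135148121, plus strand (TMEM140), chr7:107168753-107169052, plus strand (HBP1), chr3:113897250-113897549, plus strand (GRAMD1C), chr16:30096164-30096463, minus strand (YPEL3) and chr6:30075720-30076019, minus strand (RNF39), and capitals mark the motif.
TMEM140: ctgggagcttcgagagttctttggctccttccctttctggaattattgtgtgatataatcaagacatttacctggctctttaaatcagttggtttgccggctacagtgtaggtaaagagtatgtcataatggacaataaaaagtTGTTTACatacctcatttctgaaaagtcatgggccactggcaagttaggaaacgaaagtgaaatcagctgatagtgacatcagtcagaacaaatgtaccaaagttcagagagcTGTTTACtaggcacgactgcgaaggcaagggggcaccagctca
HBP1: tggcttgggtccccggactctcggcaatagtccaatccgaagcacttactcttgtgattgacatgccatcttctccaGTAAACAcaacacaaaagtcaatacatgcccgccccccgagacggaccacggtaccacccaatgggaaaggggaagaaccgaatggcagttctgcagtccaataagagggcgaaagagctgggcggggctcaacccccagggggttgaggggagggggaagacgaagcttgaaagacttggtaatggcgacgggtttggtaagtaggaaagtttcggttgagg
GRAMD1C: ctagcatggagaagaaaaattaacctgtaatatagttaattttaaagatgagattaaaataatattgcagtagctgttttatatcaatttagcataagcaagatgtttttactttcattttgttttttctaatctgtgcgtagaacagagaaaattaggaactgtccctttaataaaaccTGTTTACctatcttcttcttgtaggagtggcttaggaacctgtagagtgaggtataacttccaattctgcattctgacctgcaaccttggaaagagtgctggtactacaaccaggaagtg
YPEL3: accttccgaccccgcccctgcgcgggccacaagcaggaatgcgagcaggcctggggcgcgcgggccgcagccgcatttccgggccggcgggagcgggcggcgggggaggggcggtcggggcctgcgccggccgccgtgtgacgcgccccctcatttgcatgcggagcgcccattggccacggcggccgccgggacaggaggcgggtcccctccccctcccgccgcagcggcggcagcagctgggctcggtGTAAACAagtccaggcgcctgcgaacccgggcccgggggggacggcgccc
RNF39: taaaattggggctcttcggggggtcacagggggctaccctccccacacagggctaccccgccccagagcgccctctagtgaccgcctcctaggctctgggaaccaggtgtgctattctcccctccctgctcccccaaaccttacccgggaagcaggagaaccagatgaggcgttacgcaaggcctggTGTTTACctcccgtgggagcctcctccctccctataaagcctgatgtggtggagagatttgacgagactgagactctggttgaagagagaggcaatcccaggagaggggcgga
TMEM140 held the motif on both sides of its start, HBP1, GRAMD1C and RNF39 upstream of the start, at positions -173, -70 and -63, and YPEL3 at the first transcribed base.

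Of the 12109 genes, 1511 rose (12.5%) and 1071 fell (8.84%) with the combination, 21.3% in all. Rises were the larger changes, since 148 genes rose (1.22%) and 40 fell (0.33%) at least 2-fold, and 18 rose and 0 fell at least 4-fold. The median log2 fold change was 0.53 among the genes that rose, -0.49 among those that fell and 0.02 over all genes. The combination and DMSO arrays did not overlap for 39.3% of the genes tested. Of all genes, 432 (3.57%) had no probe detected on any of the 6 arrays, 63 (0.52%) were called higher with the combination and not detected with DMSO, and 28 (0.231%) were called lower and not detected with the combination. Rises were 58.5% of the calls, and 68.6% with median scaling in place of quantile normalization, which left 649 rises and 297 falls. With the methods' t-test after adjustment there were 741 rises and 510 falls. Quantile normalization forces 1 distribution on the arrays, and it hides any shift that most RNAs of the cells had in common.

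**Figure D1:**
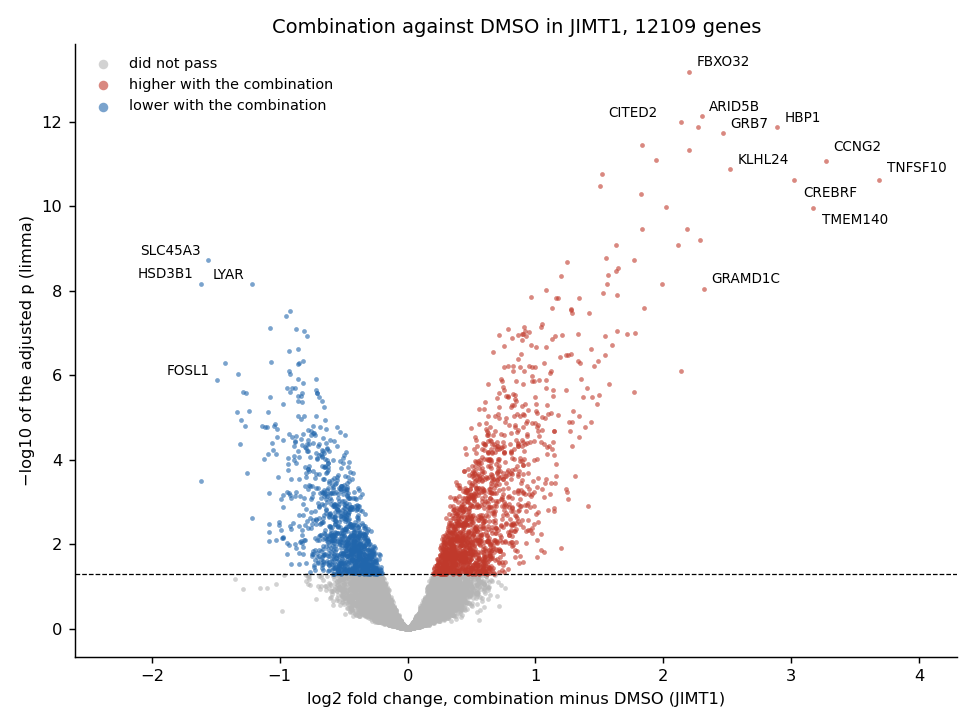
Log2 fold change of the combination over DMSO in JIMT1 (x axis) against the −log10 of limma's adjusted p (y axis) for 12109 genes, 1 point per gene, with the threshold of 0.05 as a dashed line. The 1511 rises (red) reach a log2 fold change of 3.69 at TNFSF10, which was not detected with DMSO, whereas the 1071 falls (blue) end at -1.62 at HSD3B1.

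The 20 largest rises and 20 largest falls were chosen among genes that passed the test and whose groups did not overlap. The separation of their groups is thus part of the choice and not a further result. The 20 largest rises held 3 members of the list of cell-cycle inhibitors, CCNG2, HBP1 and YPEL3. CCNG2, an atypical cyclin that opposes proliferation, had 8.70, 8.54 and 8.59 on the combination arrays, against 5.73, 5.10 and 5.20 on the DMSO arrays (log2 fold change 3.27, SE 0.16, adjusted p = 8.7e-12). Its probe was detected on 1 of the 3 DMSO arrays, so the fold change is set partly by background signal. The other probes of CCNG2 gave 1.93 and 1.46, detected on 1 and 0 of the DMSO arrays. HBP1, a repressor of cell-cycle genes, had 9.52, 9.66 and 9.64 on the combination arrays, against 6.53, 6.56 and 7.05 on the DMSO arrays (log2 fold change 2.89, SE 0.12, adjusted p = 1.3e-12), and its other probe gave 2.81. For both genes the lowest combination array stood at least 2 units above the highest DMSO array. YPEL3, a Yippee family protein linked to growth arrest and senescence, had 9.16, 9.11 and 9.28 on the combination arrays, against 6.91, 6.83 and 6.99 on the DMSO arrays (log2 fold change 2.27, SE 0.10, adjusted p = 1.3e-12). The 3 combination arrays of YPEL3 lay within 0.2 of each other and the groups were far apart. The coregulator CITED2, a CBP/p300-binding protein that restrains HIF1, had 10.62, 10.56 and 10.58 on the combination arrays, against 8.51, 8.41 and 8.43 on the DMSO arrays (log2 fold change 2.14, SE 0.09, adjusted p = 1e-12).

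The death ligand TRAIL, encoded by TNFSF10, had 8.73, 8.37 and 8.38 on the combination arrays, against 5.03, 4.68 and 4.70 on the DMSO arrays (adjusted p = 2.3e-11). It was detected on no DMSO array, so its change is a bound, at least 9.22-fold higher with the combination, set by the mean of the lowest signal among detected probes of each DMSO array. TMEM140, a membrane protein of little known function, had 8.34, 8.47 and 8.51 on the combination arrays, against 5.03, 4.91 and 5.87 on the DMSO arrays (log2 fold change 3.17, SE 0.18, adjusted p = 1.1e-10). Its probe was detected on 1 of the 3 DMSO arrays, and DMSO replicate 3 was the highest of them, while all combination arrays lay above 8.3. FILIP1L, a regulator of cell migration, had 7.98, 8.06 and 7.76 on the combination arrays, against 5.54, 5.81 and 6.04 on the DMSO arrays (log2 fold change 2.14, SE 0.22, adjusted p = 7.9e-07), with 2.77 and 2.38 from its other probes. From the authors' processed values FILIP1L had a log2 fold change of 2.54 and lost its call (adjusted p = 0.109).

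Regulators of transcription and protein breakdown made up a further share of the largest rises. CREBRF, a regulator that sends CREB3 to degradation, had 9.19, 8.99 and 9.16 on the combination arrays, against 5.96, 6.18 and 6.14 on the DMSO arrays (log2 fold change 3.02, SE 0.16, adjusted p = 2.4e-11), and its other probe gave 2.91. ARID5B, a subunit of a histone demethylase complex, had 8.76, 8.66 and 8.76 on the combination arrays, against 6.48, 6.55 and 6.25 on the DMSO arrays (log2 fold change 2.30, SE 0.09, adjusted p = 7.4e-13). In both genes the arrays of a group differed by 0.3 or less. KLHL24, a substrate adaptor of a CUL3 ubiquitin ligase, had 10.91, 11.03 and 10.65 on the combination arrays, against 8.42, 8.41 and 8.19 on the DMSO arrays (log2 fold change 2.52, SE 0.13, adjusted p = 1.3e-11). FBXO32 (atrogin-1), the ligase subunit that marks muscle atrophy and a classical FOXO target, had 11.48, 11.42 and 11.51 on the combination arrays, against 9.28, 9.28 and 9.25 on the DMSO arrays (log2 fold change 2.20, SE 0.07, adjusted p = 6.6e-14), and its other probe gave 1.50. FBXO32 had the smallest adjusted p of the named rises, with DMSO arrays that spread over less than 0.1. CBLB, a ubiquitin ligase that turns off receptor tyrosine kinases and PI3K, had 8.55, 8.48 and 8.68 on the combination arrays, against 6.20, 6.63 and 6.90 on the DMSO arrays (log2 fold change 1.99, SE 0.15, adjusted p = 6.9e-09). ABTB1, a BTB domain protein, rose by 2.28 and RNF39, a RING finger protein, by 2.02 with its probe detected on 1 of the 3 DMSO arrays.

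Components of signaling and autophagy completed the group. GRB7, an adaptor that binds activated ERBB2 and whose gene neighbours ERBB2, was bright already with DMSO and had 12.92, 12.68 and 12.81 on the combination arrays, against 10.33, 10.37 and 10.31 on the DMSO arrays (log2 fold change 2.46, SE 0.11, adjusted p = 1.9e-12). The combination arrays of GRB7 were all above 12.6 and the DMSO arrays all below 10.4, and its other probes gave 2.59 and 1.61. VAV3, a guanine nucleotide exchange factor of the VAV family, had 9.74, 9.63 and 9.98 on the combination arrays, against 7.73, 7.55 and 7.51 on the DMSO arrays (log2 fold change 2.19, SE 0.13, adjusted p = 3.4e-10). PIM1, a serine/threonine kinase that shares substrates with AKT, had 9.96, 9.85 and 9.86 on the combination arrays, against 7.90, 7.85 and 8.09 on the DMSO arrays (log2 fold change 1.94, SE 0.09, adjusted p = 7.9e-12). That the groups of both genes did not overlap follows from the rule of choice. GABARAPL1, a homolog of ATG8 that builds the autophagosome, had 10.85, 10.89 and 11.23 on the combination arrays, against 8.76, 8.72 and 8.88 on the DMSO arrays (log2 fold change 2.20, SE 0.10, adjusted p = 4.7e-12). GRAMD1C, a sterol transfer protein, rose by 2.32 and ATOSA by 2.11. The smallest of the 20 rises was 1.94, and the next gene in the order had 1.85.

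**Figure D2:**
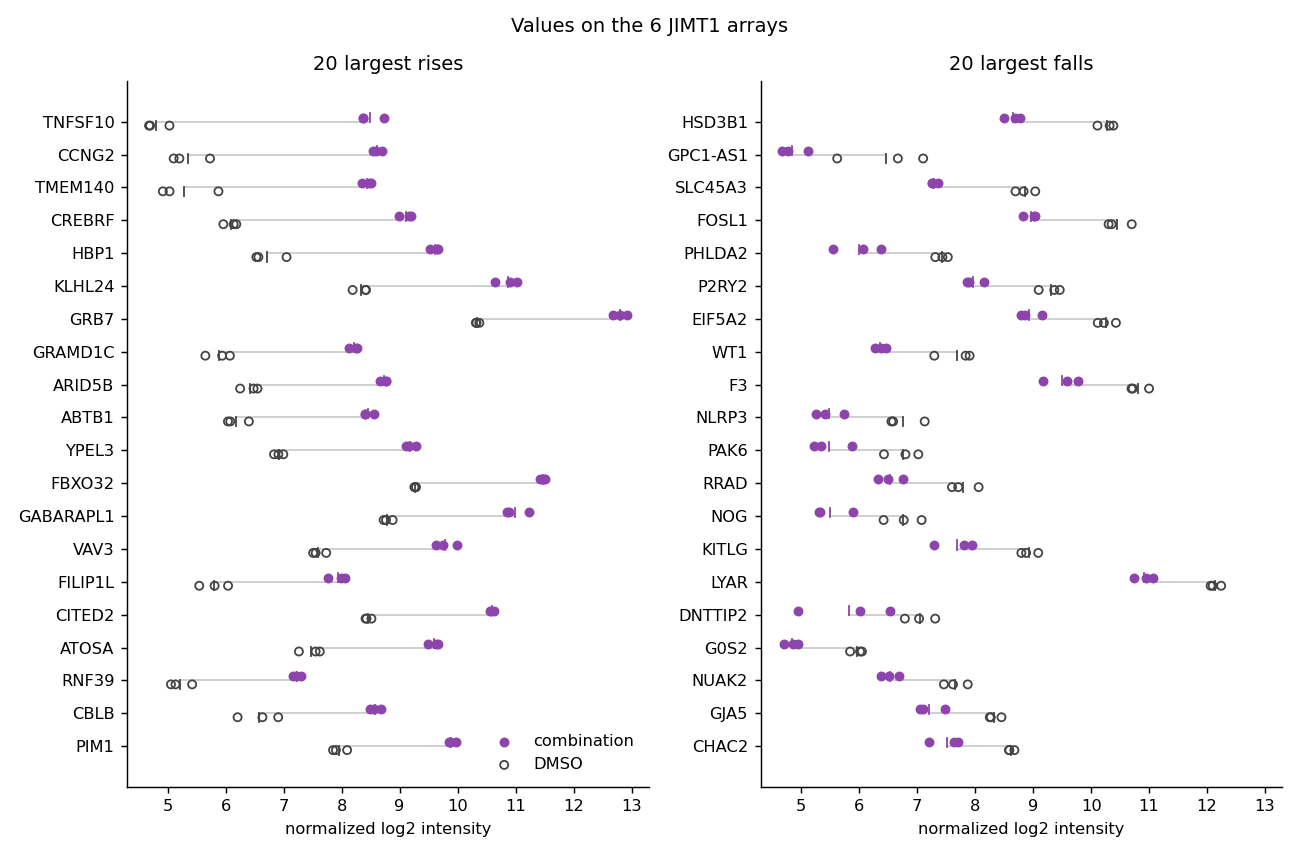
Normalized log2 intensity (x axis) of the 20 largest rises (left) and 20 largest falls (right) in JIMT1, with the 3 combination arrays as filled purple points and the 3 DMSO arrays as open points in each row, and vertical ticks at the means. The combination and DMSO points are apart in every row, as the rule for these genes requires, with GRB7 and FBXO32 the brightest of the rises and LYAR the brightest of the falls on the combination arrays.

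The largest fall was that of HSD3B1, an enzyme of steroid hormone synthesis, with 8.50, 8.68 and 8.78 on the combination arrays, against 10.11, 10.38 and 10.32 on the DMSO arrays (log2 fold change -1.62, SE 0.12, adjusted p = 6.8e-09). SLC45A3, a membrane transporter best known from prostate, had 7.36, 7.25 and 7.26 on the combination arrays, against 8.69, 9.04 and 8.83 on the DMSO arrays (log2 fold change -1.56, SE 0.11, adjusted p = 1.9e-09). The groups of both genes were more than 1 unit apart. From the authors' processed values HSD3B1 had -1.66 (adjusted p = 0.125) and did not pass. GPC1-AS1, an RNA annotated antisense to GPC1, had 5.11, 4.76 and 4.67 on the combination arrays, against 6.67, 7.10 and 5.62 on the DMSO arrays (adjusted p = 0.00032). With no detection on any combination array its change is a bound, at least 2.2-fold lower, and the call was lost with the methods' t-test.

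Members of the list of ERK pathway output stood high among the falls. FOSL1, a subunit of AP-1 that follows ERK activity, had 8.83, 9.01 and 9.04 on the combination arrays, against 10.35, 10.30 and 10.70 on the DMSO arrays (log2 fold change -1.49, SE 0.16, adjusted p = 1.3e-06). PHLDA2, an imprinted PH domain protein, had 6.37, 5.55 and 6.06 on the combination arrays, against 7.53, 7.31 and 7.43 on the DMSO arrays (log2 fold change -1.43, SE 0.15, adjusted p = 5.2e-07). F3 (tissue factor), which starts coagulation and is on the NF-kB list, fell (log2 fold change -1.30, SE 0.17, adjusted p = 1.2e-05), with -1.22 from its other probe. Of these 3 genes PHLDA2 varied most among the combination arrays. NUAK2, a kinase related to AMPK and a target of YAP, fell by 1.13 on the log2 scale, with -0.79 from its other probe. RRAD, a small GTPase, fell by 1.26 on the log2 scale and lost the call from the authors' processed values (adjusted p = 0.264).

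Falls also included receptors, secreted factors and developmental regulators. P2RY2, a receptor for extracellular ATP and UTP, had 7.89, 7.87 and 8.15 on the combination arrays, against 9.09, 9.36 and 9.46 on the DMSO arrays (log2 fold change -1.34, SE 0.17, adjusted p = 7.2e-06). KITLG (stem cell factor), the ligand of KIT, had 7.95, 7.80 and 7.29 on the combination arrays, against 8.88, 8.80 and 9.09 on the DMSO arrays (log2 fold change -1.24, SE 0.15, adjusted p = 6.8e-06), and -0.81 from its other probe. WT1, a zinc finger transcription factor, had 6.26, 6.46 and 6.37 on the combination arrays, against 7.29, 7.90 and 7.84 on the DMSO arrays (log2 fold change -1.31, SE 0.19, adjusted p = 4.1e-05). DMSO replicate 1 was the lowest DMSO array for P2RY2 and WT1. NOG (noggin), which binds BMPs, had a log2 fold change of -1.25, NLRP3, an inflammasome sensor, of -1.29, and the kinase PAK6 of -1.27. These 3 genes were dim, with their probe detected on 1 or 2 of the 3 combination arrays, and each lost its call by the methods' t-test. The connexin GJA5 (-1.12) fell too, and G0S2, an inhibitor of the lipase ATGL, had no detection on the combination arrays and a bound of at least 1.56-fold lower (adjusted p = 1.6e-05).

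Of the other falls, several bear on translation and the nucleolus. EIF5A2, an isoform of the translation factor that carries hypusine, had 9.15, 8.86 and 8.78 on the combination arrays, against 10.11, 10.22 and 10.43 on the DMSO arrays (log2 fold change -1.32, SE 0.14, adjusted p = 9.1e-07), and -1.54 from its other probe. LYAR, a nucleolar factor of rRNA processing, had 11.07, 10.94 and 10.74 on the combination arrays, against 12.06, 12.24 and 12.10 on the DMSO arrays (log2 fold change -1.22, SE 0.09, adjusted p = 6.9e-09), and -1.09 from its other probe. LYAR stayed one of the bright genes after its fall, and its groups were about 1 unit apart at their nearest arrays. DNTTIP2, a factor of pre-ribosome assembly, had 6.53, 6.02 and 4.94 on the combination arrays, against 7.31, 7.03 and 6.79 on the DMSO arrays (log2 fold change -1.21, SE 0.27, adjusted p = 0.0023). Its combination arrays spread over 1.6 units, and it lost the call by the methods' t-test. CHAC2, an enzyme that breaks down glutathione, fell by 1.10 on the log2 scale.

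A set of 28 gene lists by pathway describes the response more widely, each beside the 21.3% of all genes that changed and the median log2 fold change of 0.02 over all genes. The lists were written with earlier results of these data known, so their counts and order are descriptions. The list of FOXO-activated genes had 38 measured members, of which 21 rose and 2 fell, with a median of 0.61. Besides the members above, FOXO4, itself a FOXO factor, had 8.69, 8.88 and 8.49 on the combination arrays, against 7.17, 7.02 and 6.98 on the DMSO arrays (log2 fold change 1.63, SE 0.12, adjusted p = 3.4e-09). IRS2, the adaptor of insulin and IGF1 receptors, had 9.75, 9.75 and 10.27 on the combination arrays, against 8.38, 8.36 and 8.14 on the DMSO arrays (log2 fold change 1.63, SE 0.14, adjusted p = 8.8e-08). Both rose without overlap, as did 1472 of the 1511 genes that rose. CDKN2B, which encodes the CDK4/6 inhibitor p15, rose by 1.63, with 1.77 and 0.07 from its other probes, the last not detected on any of the 6 arrays. BCL6, a transcriptional repressor, rose by 0.91. The 2 members that fell, named after their values were seen, were GADD45A (-0.86), a stress sensor, and CDKN1A (-0.64), which encodes the CDK inhibitor p21. FOXO1 and FOXO3 had log2 fold changes of -0.31 and -0.27 that did not pass (adjusted p = 0.055 and 0.16), and CDKN1B, which encodes p27, had 0.31 (adjusted p = 0.11).

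**Figure D3:**
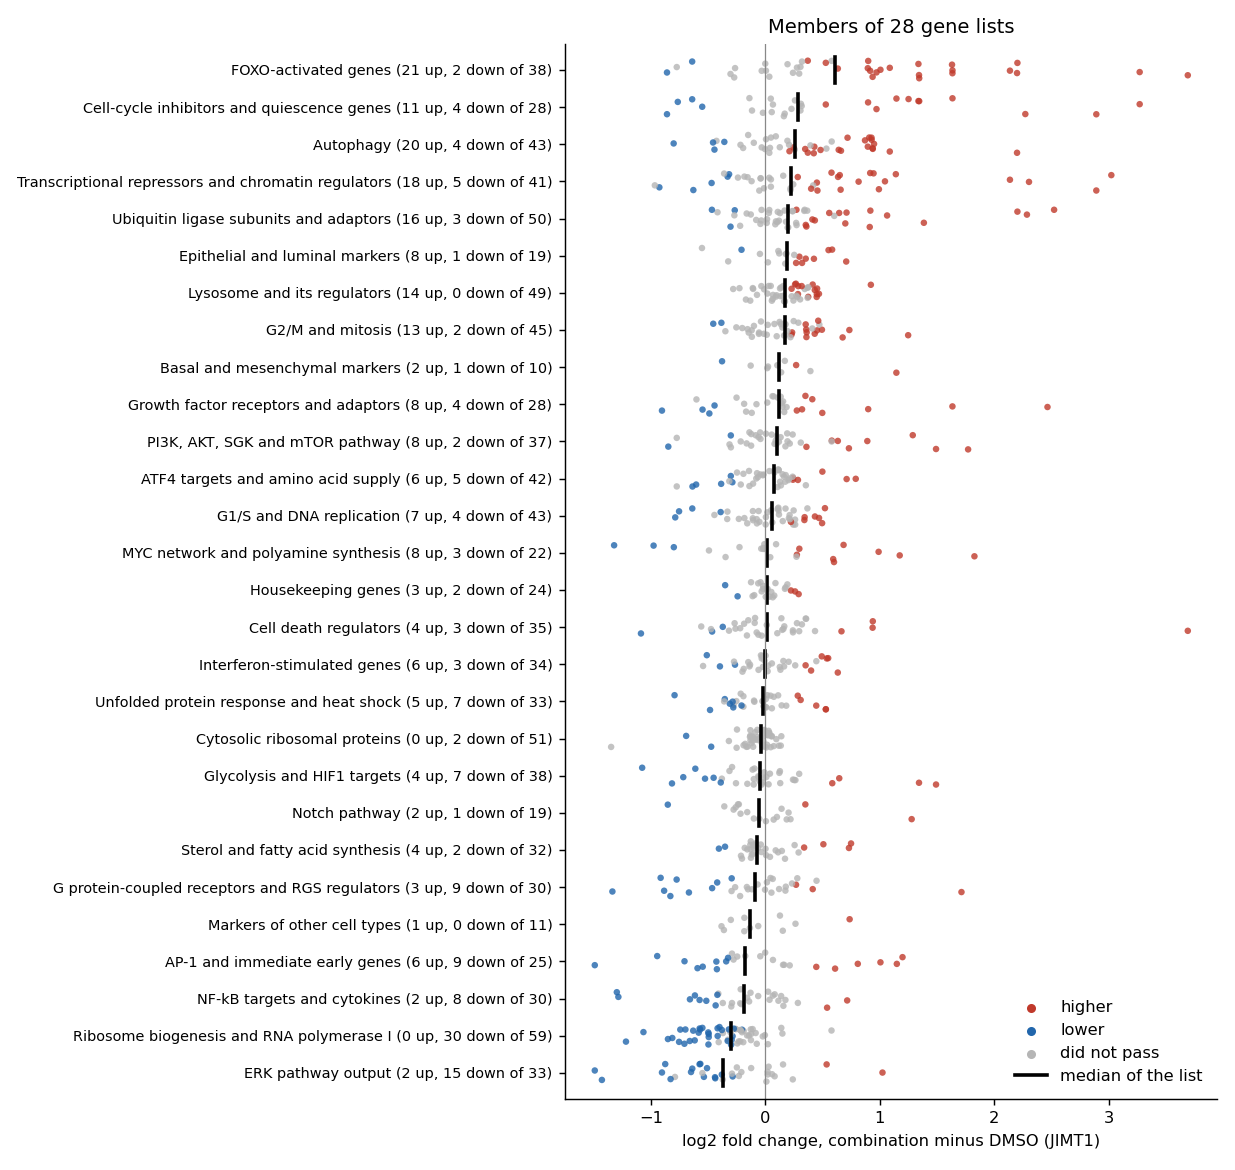
Log2 fold change of the combination over DMSO in JIMT1 (x axis) for the measured members of 28 gene lists (rows, ordered by the list median), 1 point per gene, red where it rose, blue where it fell, grey where it did not pass, with the median of each list as a black bar. The FOXO list has the highest median at 0.61, the lists of ribosome biogenesis and ERK output have the lowest at -0.30 and -0.37, and cytosolic ribosomal proteins stay near 0. The lists were written with earlier results of these data known.

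Of 28 measured receptors and adaptors 8 rose and 4 fell (median 0.12, and 3 and 1 with median scaling). ERBB3, the kinase-impaired partner of ERBB2, had 10.72, 10.68 and 10.72 on the combination arrays, against 9.79, 9.68 and 9.96 on the DMSO arrays (log2 fold change 0.90, SE 0.14, adjusted p = 0.00011), and another detected probe gave 0.51. EPHA2, an ephrin receptor kinase, had 7.24, 7.26 and 7.26 on the combination arrays, against 8.21, 8.16 and 8.10 on the DMSO arrays (log2 fold change -0.90, SE 0.10, adjusted p = 2e-06). The 2 receptors thus changed in opposite directions, with no overlap between the groups, as for most called genes. ERBB2 rose by 0.32 with its brightest probe and lost the call with median scaling. Of 37 measured genes of PI3K, AKT, SGK and mTOR signaling 8 rose and 2 fell (median 0.10). PIK3IP1, a membrane inhibitor of PI3K, had 8.13, 8.03 and 8.19 on the combination arrays, against 5.98, 6.72 and 6.35 on the DMSO arrays (log2 fold change 1.77, SE 0.20, adjusted p = 2.5e-06). NDRG1, whose protein is a substrate of SGK1, had 10.13, 10.09 and 10.05 on the combination arrays, against 8.58, 8.84 and 8.38 on the DMSO arrays (log2 fold change 1.49, SE 0.15, adjusted p = 4.7e-07). SGK1, the kinase that acts beside AKT below PDK1, was already bright and had 13.25, 13.36 and 13.39 on the combination arrays, against 12.30, 12.46 and 12.56 on the DMSO arrays (log2 fold change 0.89, SE 0.09, adjusted p = 3e-07), and its other probes gave 1.03 and 0.99. PDPK1, which encodes PDK1, and AKT1 had 0.10 and 0.00 and did not pass (adjusted p = 0.53 and 0.99).

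Genes of ribosome biogenesis and RNA polymerase I fell as a group in number, with 30 of 59 measured lower, 0 higher and a median of -0.30 (15 lower with median scaling). RRS1, an assembly factor of the large subunit, had 9.93, 9.85 and 10.07 on the combination arrays, against 10.91, 11.06 and 11.09 on the DMSO arrays (log2 fold change -1.07, SE 0.11, adjusted p = 4.9e-07). NIP7, a pre-rRNA processing factor, fell (log2 fold change -0.81, SE 0.08, adjusted p = 4.7e-07), and PNO1, which helps build the small subunit, fell by 0.85 on the log2 scale. The groups of RRS1 and NIP7 did not overlap, as held for 1037 of the 1071 genes that fell. FBL and NCL, major nucleolar proteins, had -0.01 and -0.02 and did not pass (adjusted p = 0.98 and 0.89). The letters CACGTG, the E-box that MYC binds and the same on both strands, stood in 16 of 51 promoters of this list (31.4%), against 10.1% of the promoters of the genes tested. They also stood in 4 of 17 promoters of the largest rises (23.5%) and in 7 of 33 of the FOXO list (21.2%), so the letters were not limited to genes that fell. Their share was 10.4% among all genes that rose and 10.2% among all genes that fell. Of 51 cytosolic ribosomal proteins, by contrast, 0 rose and 2 fell, with a median of -0.04, and the 2 that fell were RPL29 and RPS7. The MYC network moved in parts, with 8 of 22 measured genes higher and 3 lower (median 0.02, and 5 and 3 with median scaling). MXD3, a repressor that competes with MYC for MAX, had 8.35, 8.16 and 8.40 on the combination arrays, against 6.58, 6.54 and 6.31 on the DMSO arrays (log2 fold change 1.83, SE 0.10, adjusted p = 5.2e-11), and MNT, another MAX partner that opposes MYC, had 9.39, 9.33 and 9.57 on the combination arrays, against 8.32, 8.28 and 8.18 on the DMSO arrays (log2 fold change 1.17, SE 0.09, adjusted p = 1.5e-08). AMD1, an enzyme of polyamine synthesis, had 8.93, 8.96 and 9.12 on the combination arrays, against 9.79, 10.06 and 10.09 on the DMSO arrays (log2 fold change -0.98, SE 0.14, adjusted p = 3.4e-05). MYC itself rose by 0.30 (adjusted p = 0.016).

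Of 33 measured genes of ERK pathway output 15 fell and 2 rose (median -0.37, and 7 lower and 1 higher with median scaling). ETS2, a transcription factor, had 8.57, 8.54 and 8.60 on the combination arrays, against 9.49, 9.30 and 9.55 on the DMSO arrays (log2 fold change -0.88, SE 0.08, adjusted p = 8e-08). DUSP5, a nuclear phosphatase of ERK, fell by 0.65 on the log2 scale and DUSP6, its cytoplasmic counterpart, by 0.44. CCND1 (cyclin D1) had 12.91, 13.09 and 12.95 on the combination arrays, against 13.54, 13.60 and 13.73 on the DMSO arrays (log2 fold change -0.64, SE 0.09, adjusted p = 4e-05), the brightest of these genes. Without DMSO replicate 3, 9 members were lower. Of 25 AP-1 and immediate early genes 6 rose and 9 fell (median -0.18, and 5 and 3 with median scaling), and CCN2, a matricellular protein driven by YAP, was the largest rise, with 10.33, 10.51 and 10.49 on the combination arrays, against 9.21, 9.14 and 9.39 on the DMSO arrays (log2 fold change 1.20, SE 0.09, adjusted p = 4.5e-09). NR4A2, an orphan nuclear receptor, rose by 1.15. The AP-1 letters TGANTCA were searched on both strands of the same promoters. They stood in 4.65% of those of genes that rose and 3.35% of those of genes that fell, against 4.61% of the genes tested. Among the largest changes they stood in 2 of 17 rises (11.8%) and 1 of 15 falls (6.67%). The NF-kB list held 2 rises and 8 falls of 30 (median -0.19), or 2 falls with median scaling.

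Among 28 cell-cycle inhibitors and quiescence genes 11 rose and 4 fell (median 0.28). BTG1, an antiproliferative partner of the CCR4-NOT deadenylase, had 12.06, 11.84 and 12.09 on the combination arrays, against 10.68, 10.71 and 10.59 on the DMSO arrays (log2 fold change 1.34, SE 0.12, adjusted p = 1e-07), and TXNIP, which restrains thioredoxin and glucose uptake, rose by 1.34. Of 43 genes of G1/S 7 rose and 4 fell (median 0.06, and 1 and 3 with median scaling), a share near that of all genes. CCNE1 (cyclin E1) had 9.87, 9.85 and 9.90 on the combination arrays, against 10.61, 10.64 and 10.73 on the DMSO arrays (log2 fold change -0.79, SE 0.07, adjusted p = 1.1e-07). The CDK phosphatase CDC25A fell by 0.76 on the log2 scale. In G2/M 13 of 45 rose and 2 fell (median 0.17, and 3 and 0 with median scaling). CDC25C, the phosphatase that activates CDK1, had 9.13, 9.17 and 8.98 on the combination arrays, against 7.87, 7.91 and 7.75 on the DMSO arrays (log2 fold change 1.25, SE 0.09, adjusted p = 2e-09). MKI67 and CCNB1 had 0.18 and -0.35 and did not pass (adjusted p = 0.71 and 0.061), so the 2 classical proliferation markers showed no call at 4 hr.

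Among genes of autophagy and the lysosome that passed the test, most were higher. Of 43 autophagy genes 20 rose and 4 fell (median 0.26, and 13 and 1 with median scaling). ULK1, the kinase that starts autophagy, had 11.70, 11.78 and 11.73 on the combination arrays, against 10.60, 10.72 and 10.64 on the DMSO arrays (log2 fold change 1.09, SE 0.10, adjusted p = 2.2e-07). RB1CC1 (FIP200), its scaffold, had 11.07, 11.02 and 11.20 on the combination arrays, against 10.20, 10.06 and 10.18 on the DMSO arrays (log2 fold change 0.95, SE 0.08, adjusted p = 9.3e-08). Both were bright, and the groups were separated by more than 0.8. BNIP3L, a mitophagy receptor, rose by 0.94, whereas ATG4B, the protease that processes ATG8 proteins, had 8.87, 8.71 and 8.80 on the combination arrays, against 9.68, 9.60 and 9.52 on the DMSO arrays (log2 fold change -0.80, SE 0.14, adjusted p = 0.00041). Of 49 lysosomal genes 14 rose and 0 fell (median 0.17), 2 with median scaling and 9 without DMSO replicate 1. MITF, a transcription factor of lysosomal genes, had the largest change of that list, with 6.72, 6.94 and 7.04 on the combination arrays, against 6.17, 5.92 and 5.85 on the DMSO arrays (log2 fold change 0.92, SE 0.17, adjusted p = 0.00063). Ubiquitin ligase subunits and adaptors rose in 16 of 50 and fell in 3 (median 0.20, and 9 and 0 with median scaling), FBXL20 by 1.06. Of 41 transcriptional repressors and chromatin regulators 18 rose and 5 fell (median 0.22, and 13 and 1 with median scaling). KLF9, a Krüppel-like repressor, had 9.09, 8.81 and 9.17 on the combination arrays, against 7.97, 8.01 and 7.67 on the DMSO arrays (log2 fold change 1.14, SE 0.13, adjusted p = 3.1e-06), and ID3, an inhibitor of bHLH factors and a BMP target, had 10.01, 10.24 and 10.13 on the combination arrays, against 11.11, 10.98 and 11.07 on the DMSO arrays (log2 fold change -0.93, SE 0.13, adjusted p = 2.4e-05).

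Receptors coupled to G proteins and RGS proteins had 3 rises and 9 falls of 30 (median -0.09, and 1 and 6 with median scaling). ADORA2B, an adenosine receptor, had 9.10, 8.97 and 9.07 on the combination arrays, against 9.84, 9.99 and 10.07 on the DMSO arrays (log2 fold change -0.92, SE 0.08, adjusted p = 3e-08). The prostaglandin receptor PTGER4 had 8.14, 8.17 and 8.12 on the combination arrays, against 8.77, 9.14 and 9.17 on the DMSO arrays (log2 fold change -0.89, SE 0.14, adjusted p = 0.0001). RGS7, which ends G protein signals, went the other way with 8.25, 8.09 and 8.12 on the combination arrays, against 6.47, 6.23 and 6.62 on the DMSO arrays (log2 fold change 1.71, SE 0.15, adjusted p = 1e-07). No group of these 3 genes overlapped with the other, as for most called genes. In the Notch pathway LFNG, a glycosyltransferase of Notch receptors, had 9.78, 9.67 and 9.73 on the combination arrays, against 8.42, 8.55 and 8.39 on the DMSO arrays (log2 fold change 1.28, SE 0.10, adjusted p = 2.7e-08). The Notch ligand JAG1 had 6.09, 6.21 and 6.24 on the combination arrays, against 6.98, 7.01 and 7.12 on the DMSO arrays (log2 fold change -0.85, SE 0.13, adjusted p = 6e-05), and 2 rose and 1 fell of 19. Of 38 glycolysis and HIF1 target genes 4 rose and 7 fell (median -0.05, and 4 and 4 with median scaling). EGLN3, an oxygen-sensing prolyl hydroxylase, had 6.66, 6.36 and 6.17 on the combination arrays, against 7.64, 7.39 and 7.39 on the DMSO arrays (log2 fold change -1.08, SE 0.13, adjusted p = 3.3e-06). HK2 (hexokinase 2) fell by 0.82 on the log2 scale, and PDK4, which switches off pyruvate dehydrogenase, was detected on no DMSO array and was at least 1.65-fold higher (adjusted p = 2.9e-05).

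The lists that follow had medians within 0.2 of 0, as did many of the lists above. Cell death regulators had 4 rises and 3 falls of 35 (median 0.01, and 3 and 1 with median scaling). AEN, an exonuclease of apoptosis, had 9.48, 9.48 and 9.75 on the combination arrays, against 10.57, 10.62 and 10.79 on the DMSO arrays (log2 fold change -1.09, SE 0.14, adjusted p = 7.2e-06), and BCL2L11 (BIM) had 0.29 and did not pass (adjusted p = 0.14). Targets of ATF4 had 6 rises and 5 falls of 42, sterol and fatty acid synthesis 4 and 2 of 32, interferon-stimulated genes 6 and 3 of 34, and housekeeping genes 3 and 2 of 24, with medians of 0.08, -0.07, -0.003 and 0.01. With median scaling these counts were 2 and 0 for ATF4, 2 and 0 for sterol and fatty acid synthesis, 1 and 0 for interferon, and 0 and 0 for housekeeping. The housekeeping calls were at most 0.35 in size on the log2 scale. The unfolded protein response and heat shock list had 5 rises and 7 falls of 33 (median -0.02, and 1 and 2 with median scaling), with HSPA8, a constitutive chaperone, at -0.48 (adjusted p = 6.3e-05). Of the epithelial markers 8 of 19 rose and 1 fell (median 0.18, and 3 and 0 with median scaling), among them ELF3, an ETS factor of epithelia, with 10.09, 9.69 and 9.88 on the combination arrays, against 9.19, 9.16 and 9.19 on the DMSO arrays (log2 fold change 0.71, SE 0.09, adjusted p = 8e-06). Of 10 basal and mesenchymal markers 2 rose and 1 fell (median 0.12), and ITGB4, an integrin of hemidesmosomes, had 9.41, 9.67 and 9.51 on the combination arrays, against 8.23, 8.50 and 8.43 on the DMSO arrays (log2 fold change 1.14, SE 0.18, adjusted p = 7.6e-05). Of the 11 measured markers of other cell types 1, FCGR3A, rose (adjusted p = 0.041), with a median of -0.14 for the list, and 0 rose with median scaling. Single arrays moved some of these counts. The 8 rises among receptors and adaptors were 5 without DMSO replicate 3 or combination replicate 3, and the 8 falls of the NF-kB list were 4 without DMSO replicate 3 or combination replicate 1. The 6 rises of the ATF4 list were 3 without DMSO replicate 1 or 2 or combination replicate 1 or 3.

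The single agents show where the combination stood beside its parts. Each is compared with the same 3 DMSO arrays, so the values are given side by side, and the tests set the combination against each agent directly. Across all genes 143 differed between the combination and BYL719 alone, 92 higher (0.76%) and 51 lower (0.421%), 1.18% in all, and 1351 between the combination and GSK2334470 alone, 809 higher (6.68%) and 542 lower (4.48%), 11.2% in all. The count against BYL719 depended on the setting and on single arrays, being 9 with median scaling, 21 from the 6 arrays of those groups and 0 with the methods' t-test, and 56 without BYL719 replicate 1. Genes ranked by the change with the combination favour a larger change with it, so the counts that follow are descriptions. Of the 20 largest rises 13 were higher with the combination than with BYL719 and 20 were higher than with GSK2334470. Of the 20 largest falls 3 were lower than with BYL719 and 18 lower than with GSK2334470. BYL719 alone gave the larger change of the agents for all 20 rises and for 18 of the 20 falls.

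TNFSF10 had a log2 fold change of 3.69 with the combination, 2.76 with BYL719 and 0.60 with GSK2334470 (combination minus BYL719 0.93, adjusted p = 0.019). CREBRF had 3.02, 1.86 and 1.34 in the same order (combination minus BYL719 1.17, adjusted p = 0.00045). Both were thus higher with the combination than with BYL719. PIM1 had 1.94, 1.14 and 0.35 (combination minus BYL719 0.81, adjusted p = 0.00012), and CITED2 2.14, 1.41 and 0.44 (0.72, adjusted p = 0.00014). For CCNG2 the values were 3.27, 2.63 and 1.26, and the difference from BYL719 did not pass (0.64, adjusted p = 0.052). KLHL24 and YPEL3 had differences from BYL719 of 0.37, adjusted p = 0.17 and 0.26, adjusted p = 0.22. Of the 38 measured members of the FOXO list 8 were higher with the combination than with BYL719 and 0 lower. Across all genes the shares were 0.76% and 0.421%. Of the other genes the study names, IRS2 was higher than with BYL719 (0.64, adjusted p = 0.033). The difference did not pass for BCL6 (0.20, adjusted p = 0.27), CCND1 (-0.08, adjusted p = 0.73) and ERBB3 (-0.07, adjusted p = 0.86). A p above the threshold does not show that the combination and BYL719 act alike on the genes that did not pass.

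SGK1, CCN2 and RGS7, taken up after their values were seen, had another order of the agents. SGK1 had 0.89 with the combination, 0.14 with BYL719 and 0.60 with GSK2334470 (combination minus BYL719 0.75, adjusted p = 0.00012, combination minus GSK2334470 0.29, adjusted p = 0.035). CCN2 had 1.20, 0.47 and 1.01 and differed from BYL719 (0.73, adjusted p = 0.00013) but not past the test from GSK2334470 (0.19, adjusted p = 0.19). RGS7 had 1.71, 0.77 and 1.28 (0.95, adjusted p = 0.0032 against BYL719, 0.44, adjusted p = 0.077 against GSK2334470). Among the falls LYAR was lower with the combination than with BYL719 (-0.48, adjusted p = 0.011), as were RRAD (-0.62, adjusted p = 0.038) and CHAC2 (-0.61, adjusted p = 0.047). FOSL1 and HSD3B1 had -1.27 and -1.89 with BYL719 and -0.01 and -0.23 with GSK2334470, and neither differed past the test between the combination and BYL719 (-0.22, adjusted p = 0.57, and 0.27, adjusted p = 0.31). The list medians, which were not tested against each other, were 0.61 for the FOXO list under the combination, 0.36 under BYL719 and 0.16 under GSK2334470, -0.30, -0.32 and -0.12 for ribosome biogenesis, and -0.37, -0.37 and 0.12 for ERK output.

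**Figure D4:**
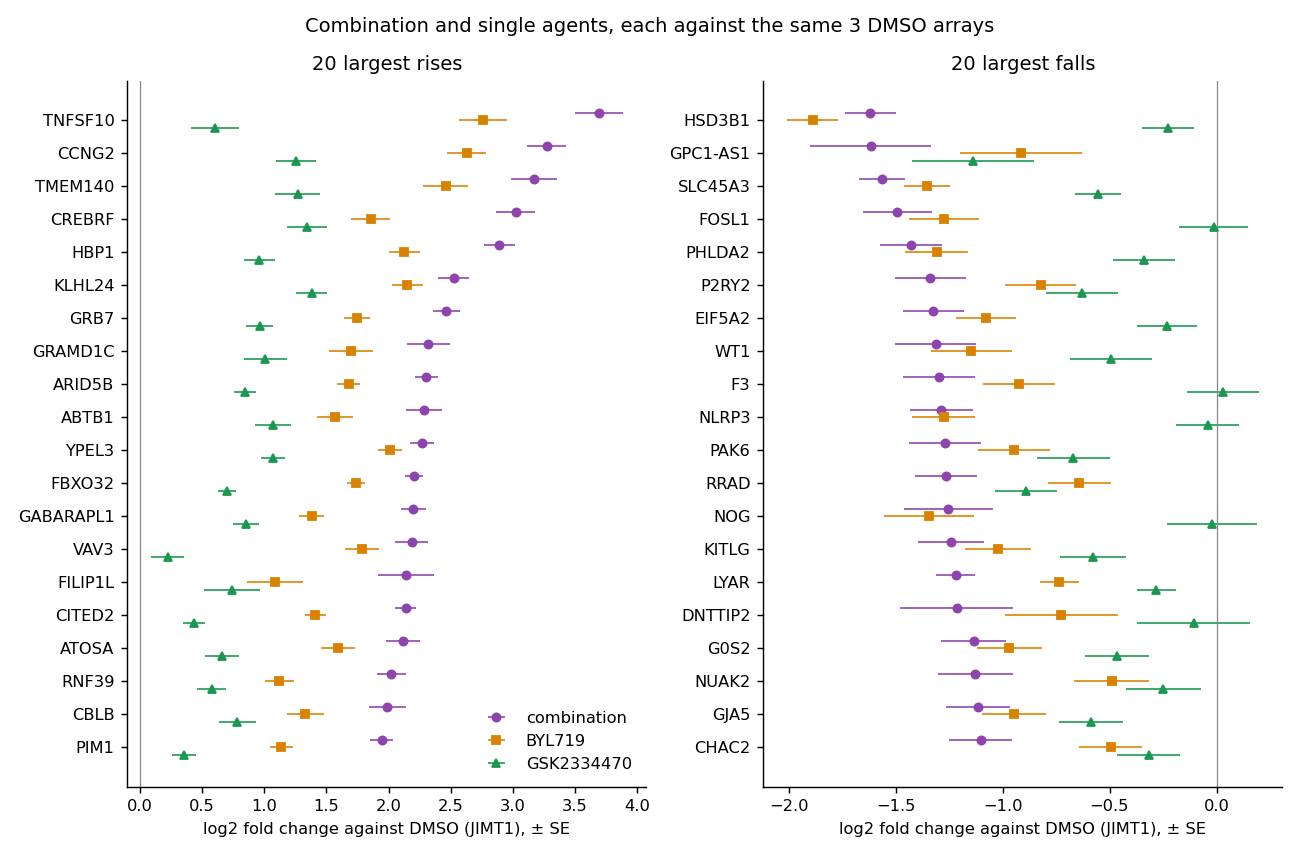
Log2 fold change against the 3 DMSO arrays of JIMT1 (x axis, ± SE from limma) for the combination (circles), BYL719 (squares) and GSK2334470 (triangles) in the 20 largest rises (left) and 20 largest falls (right), n = 3 arrays per group. The combination lies to the right of BYL719 in every rise, past the test in 13 of 20 genes that were ranked on the combination. In the falls its difference from BYL719 ranges from -0.70 (GPC1-AS1) to 0.27 (HSD3B1), lower past the test in 3 of 20.

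The same treatment in HCC1954 gave smaller changes for many of the genes above. The difference between the lines, each line's change taken against its own DMSO arrays, passed the test for 542 genes (4.48%), 369 of them with the higher change in JIMT1 (3.05%) and 173 with the lower (1.43%). It passed for 15 of the 20 largest rises, all with the larger change in JIMT1. Genes chosen for a large change in JIMT1 tend to be larger there, so this share is a description. TNFSF10 had 3.69 in JIMT1 and 1.55 in HCC1954 (difference 2.14, adjusted p = 7.5e-05), and FILIP1L had 2.14 and 0.26 (1.87, adjusted p = 0.0013). Since TNFSF10 was not detected with DMSO in JIMT1, its fitted change and that difference rest on background signal there. The line differences of CCNG2 and TMEM140 rest partly on it too, since their probes were detected on 1 of the 3 JIMT1 DMSO arrays. FILIP1L was detected on 2 of the 3 combination arrays and 0 of the 3 DMSO arrays of HCC1954, and GRAMD1C on 1 and 0, so their changes in that line were near background. CREBRF, KLHL24, ABTB1, RNF39 and PIM1 had 2.64, 2.11, 1.66, 1.81 and 1.52 in HCC1954, and the difference did not pass for these 5. Of the 20 largest falls 8 had the larger fall in JIMT1 past the test. Of these 8, HSD3B1, NLRP3, G0S2 and RRAD were detected on none of the 6 HCC1954 arrays and NOG on 1, so no fall could be measured in that line and the difference says only that the gene fell in JIMT1. SLC45A3, KITLG and GJA5 were detected on at least 5 of those 6 arrays, SLC45A3 with -1.56 in JIMT1 and -0.88 in HCC1954 (-0.68, adjusted p = 0.011) and KITLG with -1.24 and -0.24 (-1.01, adjusted p = 0.0097). GJA5 had means of only 5.68 with DMSO and 5.34 with the combination in HCC1954, where the lowest detected signals were 5.28 to 5.41. A fall as large as in JIMT1 could hardly show there, so the difference for GJA5 rests partly on background signal. P2RY2 alone had the larger fall in HCC1954 (-2.24, difference 0.91, adjusted p = 0.032).

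**Figure D5:**
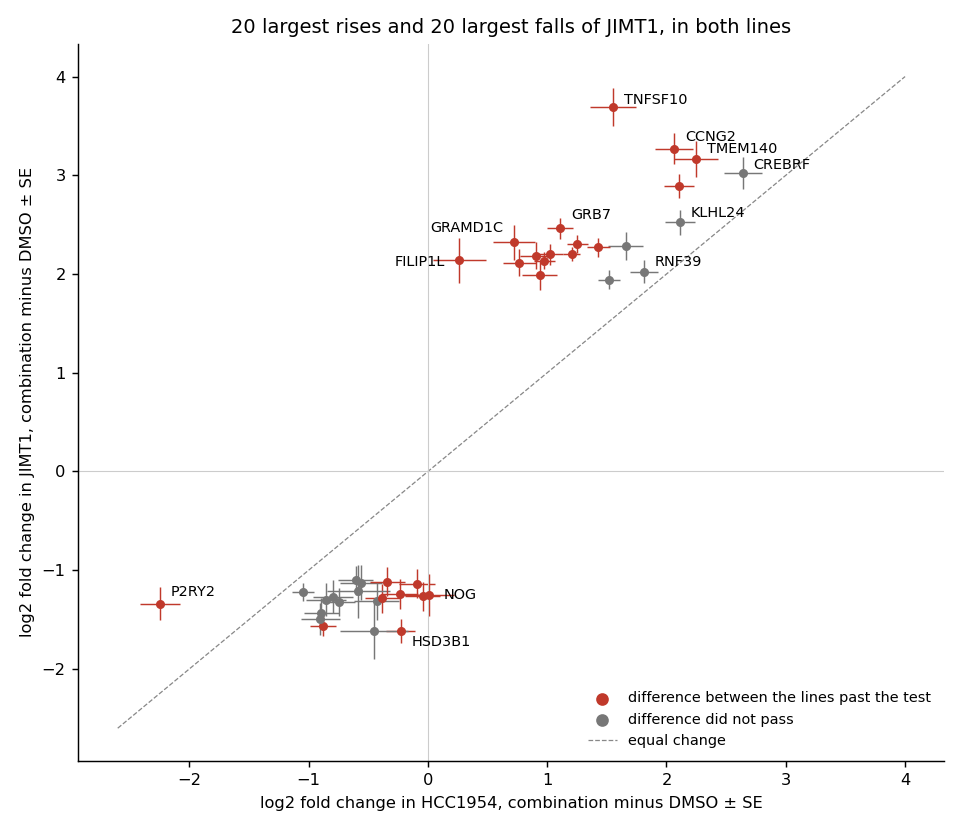
Log2 fold change of the combination over DMSO in JIMT1 (y axis) and HCC1954 (x axis), ± SE from limma, for the 20 largest rises and 20 largest falls of JIMT1, with red points where the difference between the lines passed the test and a dashed line of equal change. All rises lie on the JIMT1 side of the line, and P2RY2 is the fall with the larger change in HCC1954.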

How the data were processed

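The authors extracted total RNA and hybridised biotinylated cRNA to Illumina HT-12 bead arrays. GenomeStudio is named in the submitters' processing notes, with no version in the sources used here. The deposited table gives the mean bead intensity per probe, neither background-subtracted nor normalized, and beside it, also as deposited, a detection p-value and a bead count. A second deposited table of processed intensity values, of unstated method, served as an alternative. Bead standard errors were not used.

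R 4.3.3 and limma 3.58.1 were used: neqc from the detection p-values (offset 16), log2 and quantile normalization over 24 arrays, so fold changes of dim genes are understated. A probe was kept if its detection p-value was under 0.05 on each array of some group. Names came from the probe annotation (30113 of 47323 probes with 1 symbol), and the brightest probe stood for a gene, giving 12109 genes. One limma model of 8 group means (lmFit, eBayes, 16 residual degrees of freedom) gave every contrast, with Benjamini-Hochberg adjustment at 0.05. The procedure was tested on simulated data. A gene detected on no array of a group has a bound only, the mean of the bright group against the lowest detected signal of each dim array.

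The genes described are the 20 largest rises and 20 largest falls past the threshold without overlap between the groups and detected on all arrays of the brighter one, 6 genes the study names, and up to 6 called members per list plus defining members that did not pass. Other members of lists were named after their values were seen. The members and the 28 lists were chosen with earlier results of these data known. Alternatives were median scaling, no background correction, an offset of 50, the processed values, other filters and probe rules, fewer arrays in the fit, a replicate block, trend and robust moderation, the methods' t-test and leaving out each array. Same-numbered arrays did not deviate together, so the numbers were not used as pairs.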

Additional observations from a re-analysis of the deposited data

Results flagged for a closer look

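Of the 44 genes taken up for their change in JIMT1 or named by the study, 24 had a combination effect that differed between JIMT1 and HCC1954 past the test of the difference itself (limma, adjusted p under 0.05 over all genes). Differences are the JIMT1 log2 fold change minus the HCC1954 log2 fold change, n = 3 arrays per group. The change was more positive in JIMT1 for TNFSF10 (2.14), FILIP1L (1.87), GRAMD1C (1.60), GRB7 (1.36), ATOSA (1.35), VAV3 (1.28), CCNG2 (1.21), GABARAPL1 (1.17), CITED2 (1.16), CBLB (1.06), ARID5B (1.05), FBXO32 (1.00), TMEM140 (0.92), YPEL3 (0.84) and HBP1 (0.79). Their adjusted p ranged from 8.85e-06 to 0.0446. In HCC1954 GRB7 had mean log2 intensities of 13.80 with DMSO and 14.91 with the combination. The latter is near the highest signal of those combination arrays (raw intensity 30694.1 to 32564.4). Compression of the signal at that level was not tested. The change was more negative in JIMT1 for SLC45A3 (-0.68), GJA5 (-0.78), NLRP3 (-0.90), KITLG (-1.01), G0S2 (-1.04), RRAD (-1.22), NOG (-1.26) and HSD3B1 (-1.39), with adjusted p from 4.69e-05 to 0.0392. P2RY2 fell in both lines and by more in HCC1954 (difference 0.91, adjusted p = 0.0315). Across all genes tested 4.48% passed this test. The genes were chosen for large changes in JIMT1, so a larger change in JIMT1 was favoured by the choice. HSD3B1, NLRP3, G0S2 and RRAD were detected on none of the 6 HCC1954 arrays and NOG on 1, so no fall could be measured there, and G0S2 was detected on no combination array of JIMT1 either. FILIP1L and GRAMD1C were detected on 2 and 1 of the 6 HCC1954 arrays, and TNFSF10 on no DMSO array of JIMT1, so these differences rest partly on background signal. So do those of CCNG2 and TMEM140, whose probes were detected on 1 of the 3 DMSO arrays of JIMT1. The same holds for GJA5, which was near background in HCC1954 (mean of 5.68 with DMSO and 5.34 with the combination).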

How the results depend on the processing

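Each of the largest changes kept its direction under every alternative run, and 0 results reversed. Counts of calls fell with median scaling in place of quantile normalization, which left 649 rises and 297 falls for the combination against DMSO, 9 genes against BYL719, 274 against GSK2334470 and 131 for the difference between the lines. All 649 of those rises and 296 of those falls were also called with quantile normalization. With the methods' t-test, run on the same values per comparison, there were 741 rises and 510 falls after adjustment (2032 and 1560 at an unadjusted p under 0.05), 107 genes against GSK2334470 and 0 against BYL719, where limma called 143. From the arrays of the compared groups alone, 21 genes differed from BYL719, 824 from GSK2334470 and 334 between the lines, and without the filter on detection 84 differed from BYL719. Leaving out 1 array at a time gave 1130 to 1265 rises and 787 to 863 falls, 56 to 111 genes against BYL719, 813 to 1131 against GSK2334470 and 377 to 564 for the difference between the lines. The count against BYL719 was lowest without BYL719 replicate 1 (56) and was 66 without BYL719 replicate 3, 64 without combination replicate 3 and 72 without combination replicate 2. That against GSK2334470 was 887 without GSK2334470 replicate 1 and 813 without its replicate 2. A replicate block, added although the numbers do not pair the arrays (correlation of same-numbered deviations -0.07 to 0.009), gave 1422 rises, 1017 falls, 105, 1182 and 464. Among the largest changes, calls lost from the authors' processed values were FILIP1L, HSD3B1, NLRP3 (adjusted p = 0.18), RRAD and NOG (adjusted p = 0.332), and by the methods' t-test GPC1-AS1, NLRP3, PAK6, NOG and DNTTIP2. The slide as a block was not run, because the column headers name no slide. With 3 arrays per group and signals near background for dim genes, small changes can be missed. The cause of these shifts was not tested.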
